A study of Mus musculus with 4 samples.

Results

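The genes described here encode the folding, quality control and translocation machinery of the endoplasmic reticulum (ER) and the sensors of the unfolded protein response. They were chosen by name from a list of 40 symbols. All 40 had a value in each of the 4 libraries, of 19555 genes in the deposited tables, and all 40 passed the filter of a mean of at least 1 RPKM that left 13715 genes for testing. Spleens and lymph nodes of C57BL/6 mice gave the naive CD4+ T cells, which were activated and kept for 3 days in vitro with IL-6 and TGF-β1, the cytokines that drive differentiation into T helper 17 (Th17) cells. The groups were cells labelled Smad4 KO at 39.5 °C, cells labelled Smad4 KO at 37 °C, wild type (WT) cells at 39.5 °C and WT cells at 37 °C, with 1 library each. The temperature pairs ask what fever-range heat does to these genes, and the genotype pairs ask whether Smad4, a mediator of TGF-β signalling, bears on them. The sources used here name neither the promoter or Cre line behind the Smad4 knockout nor the number of mice. With 1 library per group no ratio between a pair of libraries has a replicate check.

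Proteins that enter the secretory pathway pass through the Sec61 channel, are glycosylated by the oligosaccharyltransferase and fold with the help of chaperones such as BiP, of disulfide isomerases and of the lectins calnexin and calreticulin. Proteins that fail to fold are sent back to the cytosol for destruction, a route called ER-associated degradation (ERAD). Unfolded protein in the ER lumen activates the sensors ATF6, IRE1 and PERK, and ATF6 and the spliced form of XBP1 then raise the transcription of chaperone and ERAD genes. T cells that secrete cytokines load this machinery, and XBP1 is best known among lymphocytes for its role in antibody-secreting plasma cells.

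Levels are given as RPKM, a read density corrected for exon length and for a library size. That size differed from the total of recovered reads by factors of 0.955 to 1.06. Whole reads behind the RPKM values summed to between 18048897 and 18475173 per library. Smad4 itself rose with the KO label (log2 0.54 ± 0.12, limma adjusted p = 0.045), and the counting intervals of its ratios to WT, 1.51 and 1.48 at 39.5 and 37 °C, lay above 1. It stood at 21.3 and 14.2 RPKM in the library labelled Smad4 KO and in WT at 39.5 °C, and at 20.7 and 14.0 RPKM at 37 °C. A lower level of Smad4 RNA was thus not seen under the label. The labels do not say which exons were deleted, so gene-level RPKM cannot check them. The genotype direction below is that of the label only. The 10 T helper and Th17 markers examined, Cd4, Trac, Rora and Il17a among them, were above 0 in all 4 libraries and summed to 1333 and 1164 RPKM at 39.5 and 37 °C under the Smad4 KO label, and to 3001 and 1521 RPKM in WT. Of 13 B and plasma cell markers 5 had a row, none of them at 0, and they summed to 64.2 RPKM in the library labelled Smad4 KO and 82.9 RPKM in WT at 39.5 °C, and to 49.5 and 94.2 RPKM at 37 °C. Most of that sum was Pou2af1. The 6 myeloid markers with a row summed to at most 8.50 RPKM, the 4 CD8 and NK markers to at most 12.4 RPKM and the 2 erythroid and platelet markers to at most 0.620 RPKM in any library, and of these Fcer1g stood at 0 at 39.5 °C under the KO label, and Cd14 and Itgax at 37 °C in WT. Markers with no row were not analysed here.

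The sequences shown are matches to the elements through which the unfolded protein response is known to act on such genes. The ER stress response element (ERSE), bound by ATF6 together with NF-Y, reads CCAAT, then 9 bases of any kind, then CCACG, and both strands were searched from 250 bases before to 50 bases after each RefSeq start site (GRCm38.p6). Of 33 members with a promoter in the RefSeq table, 7 held it (21.2%), against 37 of 27025 genes with a promoter (0.137%). As the element is known to act on such genes, these shares are a description and not a test. The 7 were Hspa5, Hsp90b1, Calr, Canx, Pdia6, Creld2 and Syvn1. Hsp90b1 had 2 copies, one on each strand. The 8 sites lay wholly upstream of the RefSeq start, between 25 and 193 bases from it. They are printed 5′ to 3′ along the gene, with the fixed letters of the element in capitals; sites that begin with CGTGG read as the element on the other strand.
Hspa5 (chr2:34772020-34772048, plus strand): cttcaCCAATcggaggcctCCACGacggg
Hsp90b1, distal (chr10:86705633-86705661, minus strand): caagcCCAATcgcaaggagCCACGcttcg
Hsp90b1, proximal (chr10:86705528-86705556, minus strand): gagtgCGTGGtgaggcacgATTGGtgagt
Calr (chr8:84847070-84847098, minus strand): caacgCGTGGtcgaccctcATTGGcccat
Canx (chr11:50325795-50325823, minus strand): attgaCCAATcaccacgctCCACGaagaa
Pdia6 (chr12:17266486-17266514, plus strand): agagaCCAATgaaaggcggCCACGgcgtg
Creld2 (chr15:88819515-88819543, plus strand): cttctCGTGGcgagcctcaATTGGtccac
Syvn1 (chr19:6046527-6046555, plus strand): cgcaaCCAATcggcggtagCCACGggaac

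A pair of related elements was searched in the same windows on both strands. ERSE-II, which reads ATTGG, 1 base of any kind and CCACG, was found in Herpud1 alone among the 33 members (3.03%) and in 12 of the 27025 genes (0.0444%). The core of the unfolded protein response element, TGACGTGG, was found in Txndc5 alone (3.03%) and in 193 genes (0.714%). Neither site overlapped an ERSE match. A match of letters is a description and does not show that a factor binds there.
Herpud1 (chr8:94386372-94386392, plus strand): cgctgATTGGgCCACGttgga
Txndc5 (chr13:38528040-38528057, minus strand): gccgcTGACGTGGcgcta

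Most of the 40 genes had less RNA at 39.5 °C than at 37 °C, and the chaperone and disulfide isomerase groups had the lowest median ratios. Under the Smad4 KO label 37 of 40 members were below 0 on the log2 scale (51.3% of all genes tested were), and in WT 28 of 40 were (53.5% of all genes). The median log2 ratio of RPKM + 1, 39.5 over 37 °C, was −0.37 for the members and −0.01 for all genes under the KO label, and −0.25 for the members and −0.02 for all genes in WT. Of the members 27 were below 0 in both genotypes, against 32.7% of all genes, and 2, Atf6 and Sec11c, were above 0 in both. At least 1.5-fold lower at 39.5 °C were 14 members under the KO label (3.81% of all genes) and 4 in WT (2.60% of all genes). The same 4, Creld2, Sdf2l1, Pdia4 and Calr, passed that fold in both genotypes, against 0.838% of all genes. Fold counts are on RPKM + 1, and Ern1, with a plain RPKM ratio of 0.632 under the KO label, is the member they leave out in the temperature pairs. No member was 1.5-fold higher at 39.5 °C in either genotype, while 3.31% and 5.32% of all genes were so under the KO label and in WT. The 2-fold mark was passed downwards by Creld2 and Manf under the KO label (0.911% of all genes) and by Creld2 in WT (0.525% of all genes).

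Seen as RNA output, the 40 genes took 0.732% of all reads at 39.5 °C (Clopper-Pearson 95% interval, 0.728 to 0.736), against 1.05% at 37 °C (1.046 to 1.055), under the Smad4 KO label. In WT their share was 0.812% at 39.5 °C (0.808 to 0.816), against 1.01% at 37 °C (1.008 to 1.017). These intervals, and those of all ratios below, cover counting error only, since each group has 1 library. The reads carry no molecular identifiers, so copies of the same molecule were counted as separate reads. In bulk RNA, fewer cells of a type and less RNA per cell cannot be told apart. The B and plasma cell marker sum was higher at 39.5 than at 37 °C under the KO label and lower in WT, and the Th17 marker sum was higher in both; their part in the result was not tested.

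**Figure D1:**
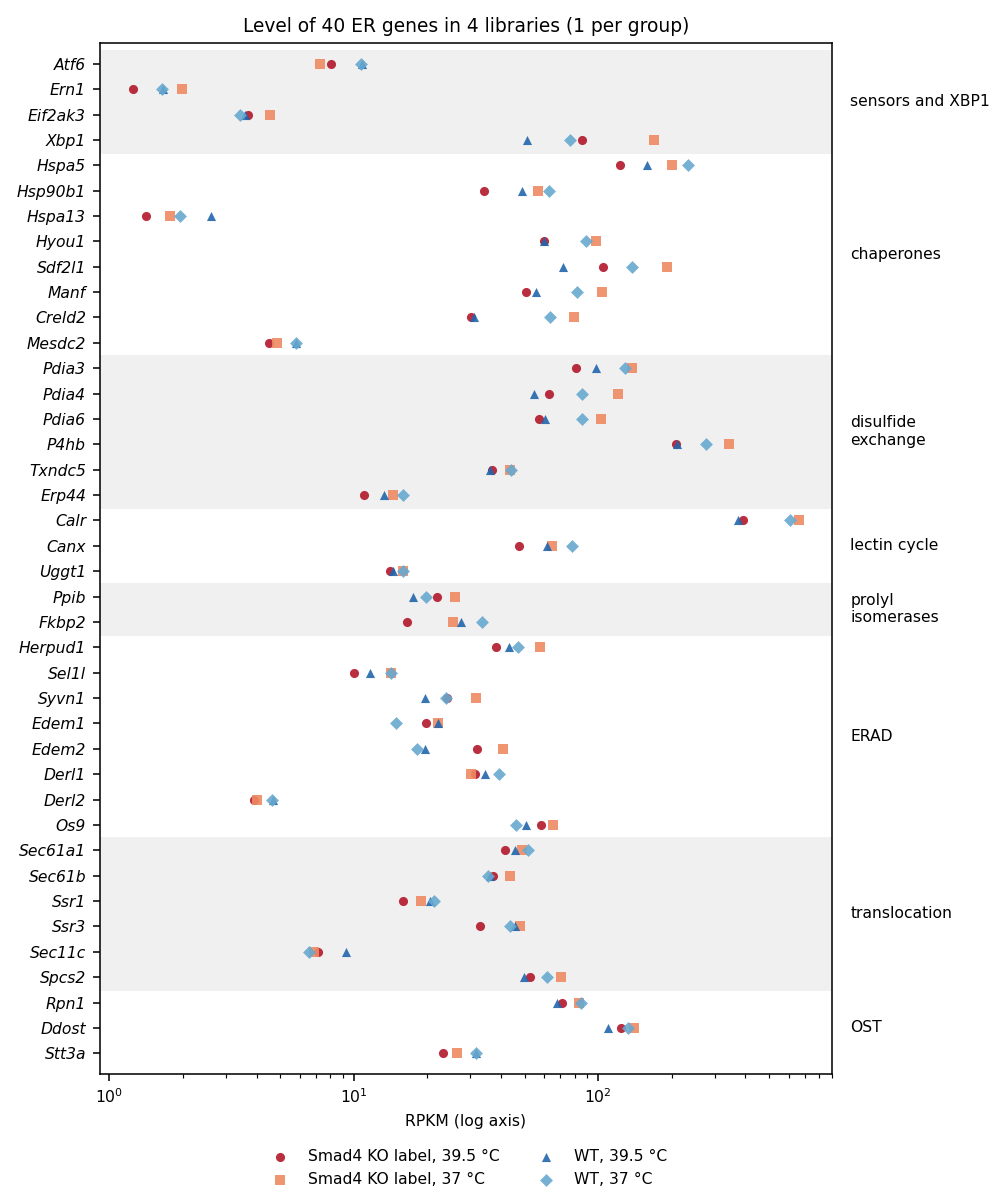
RPKM (log axis) of the 40 members in the 4 libraries, grouped by role; each point is 1 library. Calr is the most abundant, between 374 and 660 RPKM, and Ern1 the least, between 1.25 and 1.98 RPKM.

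A change shared by both genotypes was tested with limma on all 4 libraries (additive model of temperature and genotype label, log2 of RPKM + 1, Benjamini-Hochberg adjustment over all genes tested). None of the 40 members passed an adjusted p of 0.05 for temperature, where 0.0146% of all genes rose and 0.00729% fell. At an unadjusted p under 0.05, 17 of 40 members were lower at 39.5 °C and 0 were higher, against 6.79% and 7.17% of all genes. The fit has 1 residual degree of freedom, and its calls depended on the settings. With limma-voom on the recovered reads 6 members fell (Creld2, Sdf2l1, Pdia4, Calr, Xbp1 and Manf), against 0.926% of all genes that fell and 1.64% that rose. With limma on the 8947 genes with a mean of at least 5 RPKM, which left 36 members, 9 fell (those 6 and Hspa5, Hyou1 and Pdia6), against 1.25% of all genes that fell and 1.99% that rose. No member rose for temperature in either of these fits.

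Xbp1, the transcription factor gene downstream of the sensors, was lower at 39.5 °C in both genotypes, while the 3 sensor genes showed no common direction. Xbp1 (chromosome 11, 5520659 to 5525893 on GRCm38) had 85.9 RPKM at 39.5 °C and 169 RPKM at 37 °C under the Smad4 KO label, and 51.0 and 76.4 RPKM in WT. Its ratio, 39.5 over 37 °C, was 0.509 (95% interval 0.492 to 0.526) under the KO label and 0.667 (0.638 to 0.698) in WT. The shared log2 change was −0.77 ± 0.14 (SE; limma adjusted p = 0.134). RPKM over the whole gene does not separate the spliced from the unspliced form of Xbp1 mRNA.
Atf6, which encodes the sensor that is cleaved in the Golgi, had 8.08 RPKM at 39.5 °C and 7.28 RPKM at 37 °C under the KO label, and 10.8 and 10.7 RPKM in WT. Ern1, the gene of IRE1α, which splices Xbp1 mRNA, had 1.25 RPKM at 39.5 °C and 1.98 RPKM at 37 °C under the KO label, and 1.66 and 1.64 RPKM in WT. Eif2ak3, the gene of the kinase PERK, had 3.69 RPKM at 39.5 °C and 4.55 RPKM at 37 °C under the KO label, and 3.58 and 3.43 RPKM in WT. For Atf6 the counting interval of the WT ratio included 1 (0.942 to 1.07), as it did for Ern1 (0.848 to 1.21) and Eif2ak3 (0.908 to 1.21). Under the KO label the intervals excluded 1, upwards for Atf6 with a ratio of 1.11 (1.03 to 1.20) and downwards for Eif2ak3 with 0.810 (0.708 to 0.925) and Ern1 with 0.632 (0.523 to 0.762), the last on 188 and 285 reads.

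Of the 8 chaperones and cofactors, 6 had ratios of 0.775 or less in both genotypes, and the summed RPKM of the group was 408 at 39.5 °C and 736 at 37 °C under the Smad4 KO label, and 434 and 675 in WT. Creld2 (chromosome 15, 88819646 to 88826683), an ER-stress-inducible protein with disulfide isomerase activity, stood lowest relative to 37 °C. It had 30.3 RPKM at 39.5 °C and 79.9 RPKM at 37 °C under the KO label, a ratio of 0.379 (0.348 to 0.412), and 30.9 and 63.3 RPKM in WT, a ratio of 0.489 (0.448 to 0.532). Both 39.5 °C libraries lay below both 37 °C libraries, and the shared log2 change was −1.19 ± 0.14 (limma adjusted p = 0.071).
Sdf2l1, a partner of BiP and its J-domain proteins, had 105 RPKM at 39.5 °C and 191 RPKM at 37 °C under the KO label, a ratio of 0.549 (0.520 to 0.579). In WT it had 71.7 and 137 RPKM, a ratio of 0.524 (0.492 to 0.557), and the shared log2 change was −0.89 ± 0.11 (limma adjusted p = 0.073). Manf, which encodes a secreted and ER-resident stress protein, had 50.5 RPKM at 39.5 °C and 104 RPKM at 37 °C under the KO label, a ratio of 0.486 (0.466 to 0.507). In WT Manf had 55.6 and 81.9 RPKM, a ratio of 0.678 (0.650 to 0.707).
Both genes were lower in each 39.5 °C library than in the 37 °C library of the same genotype. Manf shares exon sequence with its neighbours Dcaf1 and Rbm15b, Pdia3 with Catsper2, Ppib with Snx22 and Mesdc2 and Hsp90b1 with predicted genes. Exons of Eif2ak3, Pdia4, Pdia6, Txndc5, Sec61a1 and Rpn1 also overlap those of other annotated genes. Reads in these stretches cannot be assigned with certainty.

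Hspa5 encodes BiP, the central HSP70 of the ER and the release switch of the sensors. It had 123 RPKM at 39.5 °C and 201 RPKM at 37 °C under the KO label, a ratio of 0.611 (0.595 to 0.627), and 159 and 233 RPKM in WT, a ratio of 0.682 (0.667 to 0.698). Hyou1, the gene of the HSP110-type exchange factor of BiP, had 59.8 RPKM at 39.5 °C and 97.5 RPKM at 37 °C under the KO label, and 60.2 and 89.3 RPKM in WT. Its ratios of 0.613 (0.596 to 0.631) and 0.674 (0.655 to 0.693) lay close to those of Hspa5. Hsp90b1, the gene of the ER HSP90 GRP94, had 34.0 RPKM at 39.5 °C and 56.7 RPKM at 37 °C under the KO label, and 48.8 and 63.0 RPKM in WT, with ratios of 0.600 (0.570 to 0.630) and 0.775 (0.743 to 0.809). For all 3 genes both 39.5 °C libraries lay below both 37 °C libraries.
The remaining chaperone genes were scarce. Mesdc2, whose product folds LRP-family receptors, had 4.50 RPKM at 39.5 °C and 4.85 RPKM at 37 °C under the KO label, and 5.80 and 5.82 RPKM in WT. Hspa13, a microsomal HSP70-like ATPase, went against its group in WT: it had 1.41 RPKM at 39.5 °C and 1.78 RPKM at 37 °C under the KO label, and 2.61 and 1.95 RPKM in WT.

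The disulfide isomerase genes, whose products make and shuffle disulfide bonds, were lower at 39.5 °C in both genotypes for all 6 members. Their summed RPKM was 456 at 39.5 °C and 759 at 37 °C under the Smad4 KO label, and 472 and 637 in WT. Pdia4, which encodes ERp72, had 62.7 RPKM at 39.5 °C and 120 RPKM at 37 °C under the KO label, a ratio of 0.523 (0.499 to 0.548). In WT Pdia4 had 54.4 and 85.7 RPKM, a ratio of 0.635 (0.604 to 0.668), and the shared log2 change was −0.78 ± 0.13 (limma adjusted p = 0.117). Pdia6, which encodes P5, an attenuator of the sensors, had 57.3 RPKM at 39.5 °C and 102 RPKM at 37 °C under the KO label, and 60.4 and 85.6 RPKM in WT. Its ratios were 0.562 (0.540 to 0.584) and 0.706 (0.679 to 0.734).
P4hb, the gene of the founding protein disulfide isomerase, was the second most abundant member. It had 207 RPKM at 39.5 °C and 341 RPKM at 37 °C under the KO label, and 210.2 and 277 RPKM in WT, with ratios of 0.608 (0.594 to 0.623) and 0.759 (0.741 to 0.778). Pdia3, whose product ERp57 works on glycoproteins held by calnexin and calreticulin, had 80.7 RPKM at 39.5 °C and 138 RPKM at 37 °C under the KO label, and 98.1 and 129 RPKM in WT, with ratios of 0.586 (0.565 to 0.608) and 0.760 (0.735 to 0.787). In each of these 4 genes both 39.5 °C libraries were below both 37 °C libraries. Txndc5 and the early secretory pathway retrieval factor gene Erp44 differed less, with ratios between 0.766 and 0.842 in both genotypes.

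In the lectin cycle, which holds N-glycosylated proteins until they are folded, the soluble lectin stood out. Calr, the gene of calreticulin (chromosome 8, 84841850 to 84846934), had 391 RPKM at 39.5 °C and 660 RPKM at 37 °C under the Smad4 KO label, and 374 and 607 RPKM in WT. Its ratios were 0.592 (0.582 to 0.602) under the KO label and 0.617 (0.606 to 0.628) in WT, and the shared log2 change was −0.73 ± 0.10 (limma adjusted p = 0.084). Canx, the gene of the membrane-bound homologue calnexin, had ratios of 0.733 (0.704 to 0.764) and 0.794 (0.766 to 0.823). Uggt1, the glucosyltransferase that returns unfolded glycoproteins to the lectins, had ratios of 0.886 (0.845 to 0.929) and 0.907 (0.866 to 0.95). The order of the 3 ratios was the same in both genotypes.
Of the prolyl isomerases, Fkbp2 had ratios of 0.652 (0.542 to 0.782) under the KO label and 0.820 (0.708 to 0.948) in WT, on 202 to 404 reads a library. Ppib, the gene of cyclophilin B, had ratios of 0.846 (0.786 to 0.911) and 0.884 (0.814 to 0.960).

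ERAD genes had no common direction in WT. Of 8 members, 7 were below 0 under the Smad4 KO label (51.3% of all genes) and 4 in WT (53.5% of all genes), and the group medians of the log2 ratio were −0.25 and −0.05. Herpud1, which organises the ERAD complex at the membrane, had 38.0 RPKM at 39.5 °C and 57.9 RPKM at 37 °C under the KO label, a ratio of 0.657 (0.617 to 0.701), and 43.2 and 47.1 RPKM in WT, a ratio of 0.918 (0.862 to 0.978). The ubiquitin ligase gene Syvn1 and its partner Sel1l had ratios of 0.762 (0.719 to 0.807) and 0.711 (0.665 to 0.759) under the KO label, and 0.820 (0.770 to 0.874) and 0.823 (0.774 to 0.875) in WT. Syvn1 shares exon sequence with Mrpl49 on the other strand, and the sources used here do not say whether counting used strand.
Edem1, a mannose-trimming factor that marks glycoproteins for degradation, went the other way in WT. It had 19.8 RPKM at 39.5 °C and 22.1 RPKM at 37 °C under the KO label, and 22.2 and 14.9 RPKM in WT, so that the WT library at 37 °C was the lowest of the 4. Its ratios were 0.894 (0.845 to 0.947) and 1.49 (1.40 to 1.58). The lectin gene Os9 had ratios of 0.895 (0.850 to 0.943) and 1.10 (1.04 to 1.17). The channel component genes Derl1 and Derl2 and the EDEM relative Edem2 had ratios between 0.780 and 1.04 under the KO label and between 0.878 and 1.08 in WT. Derl2 shares exon sequence with Mis12.

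**Figure D2:**
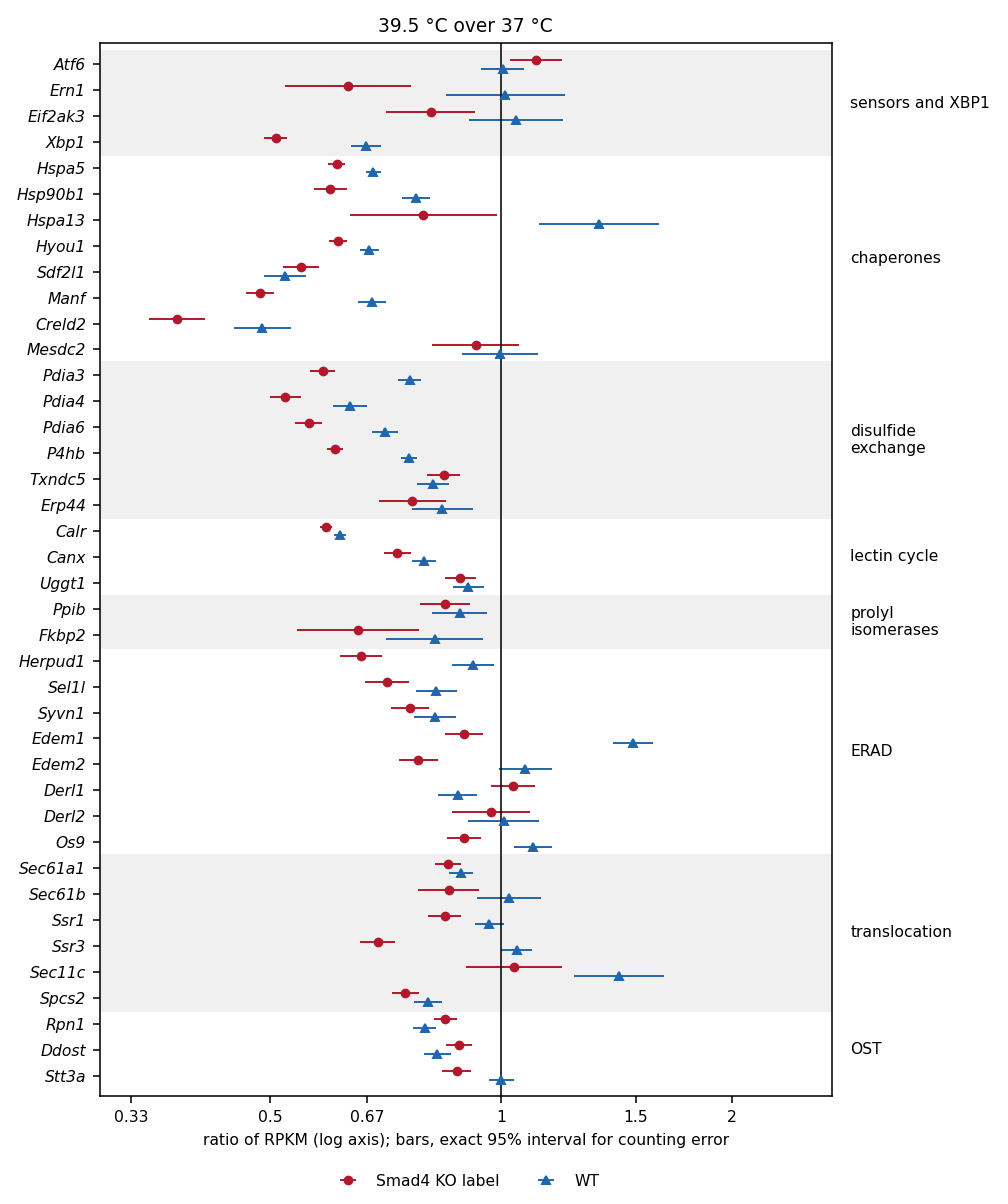
Ratio of RPKM at 39.5 over 37 °C for the 40 members (log axis) in the libraries labelled Smad4 KO (circles) and WT (triangles); bars are exact 95% intervals for counting error. Chaperone, disulfide isomerase and Calr ratios lie mostly between 0.379 and 0.775. In WT 12 members lie above 1, with Edem1, Sec11c and Hspa13 the highest.

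Ratios nearer to 1 were seen in most of the entry and glycosylation machinery. The 6 translocation genes had ratios between 0.691 and 1.04 under the Smad4 KO label and between 0.804 and 1.42 in WT. Spcs2, a signal peptidase subunit gene, was the lowest in WT at 0.804 (0.771 to 0.839), and had 0.751 (0.721 to 0.783) under the KO label. Ssr3, a subunit gene of the TRAP complex at the translocon, had 33.0 RPKM at 39.5 °C and 47.8 RPKM at 37 °C under the KO label, a ratio of 0.691 (0.656 to 0.727). In WT Ssr3 had 45.5 and 43.4 RPKM, a ratio of 1.05, with an interval that reached down to 1. Sec11c, which encodes a catalytic subunit of the signal peptidase, had 7.13 RPKM at 39.5 °C and 6.86 RPKM at 37 °C under the KO label, and 9.30 and 6.53 RPKM in WT. The WT library at 39.5 °C stood above the other 3, with a ratio of 1.42 (1.25 to 1.63).
The channel genes Sec61a1 and Sec61b had ratios of 0.853 (0.822 to 0.886) and 0.855 (0.779 to 0.938) under the KO label, and 0.886 (0.855 to 0.918) and 1.03 (0.931 to 1.13) in WT. The oligosaccharyltransferase genes Rpn1, Ddost and Stt3a had ratios between 0.847 and 0.881 under the KO label and between 0.795 and 1.001 in WT. The summed RPKM of these 3 was 218 at 39.5 °C and 251 at 37 °C under the KO label, and 208 and 249 in WT.

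Most members stood lower at 39.5 relative to 37 °C under the Smad4 KO label than they did in WT. The difference of the log2 ratios, KO label minus WT, was below 0 for 34 of 40 members, against 50.4% of all genes, and its median was −0.19 for the members and −0.003 for all genes. It was −0.70 for Edem1, −0.59 for Ssr3, −0.50 for Hspa13, −0.48 for Manf and −0.47 for Herpud1. It was close to 0 for Calr (−0.06) and Sdf2l1 (0.06). The log2 ratios under the KO label and in WT, from pairs that share no library, correlated across the 40 genes (Pearson 0.80, Spearman 0.78; all genes 0.39 and 0.32), a description in which genes are not replicates. With 1 library per group the interaction has no error and was not tested.

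Set against WT, the libraries labelled Smad4 KO had more Xbp1, Edem2 and Sdf2l1 RNA, and for the list as a whole there was little difference. In the additive limma fit 3 of 40 members (7.50%) rose with the KO label, against 8.57% of all genes. Of the members 0 fell, against 4.70% of all genes, and the share that rose lay near the background. The adjusted p-values of this fit rest on 1 residual degree of freedom, and their false call rate was not checked for the label. The Th17 marker sum was lower with the KO label at both temperatures, as was the B and plasma cell marker sum; their part in these values was not tested. Xbp1 rose by 0.94 ± 0.14 on the log2 scale (SE; limma adjusted p = 0.021), with ratios to WT of 1.68 (1.61 to 1.76) at 39.5 °C and 2.21 (2.13 to 2.29) at 37 °C. Edem2 (chromosome 2, 155701677 to 155729475), which starts the trimming of mannose on glycoproteins, rose by 0.90 ± 0.15 (limma adjusted p = 0.027). It had 31.8 RPKM in the library labelled Smad4 KO and 19.6 RPKM in WT at 39.5 °C, and 40.8 and 18.2 RPKM at 37 °C. Both KO-labelled libraries lay above both WT libraries. Sdf2l1 rose by 0.51 ± 0.11 (limma adjusted p = 0.044), with ratios of 1.46 (1.37 to 1.56) at 39.5 °C and 1.39 (1.32 to 1.46) at 37 °C. The Sdf2l1 call was lost without a variance trend, with quantile normalization and with scaling to total reads, and all 3 calls were lost when no filter on low values was used. Other settings called falls with the KO label: Atf6 with limma-voom and with a minimum mean of 5 RPKM, Fkbp2 with that minimum and with scaling to total reads, and Hspa5 with quantile normalization (limma adjusted p of 0.023 to 0.049).

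At 39.5 °C no member was 2-fold higher or lower with the KO label, where 2.30% and 1.05% of all genes were. At 37 °C Xbp1 and Edem2 were 2-fold higher (4.70% of all genes) and no member was 2-fold lower (1.14%). At 1.5-fold the count stayed at these 2 genes at 37 °C, against 11.5% of all genes, with 0 lower, against 7.35%. At 39.5 °C the same 2 were 1.5-fold higher (9.06% of all genes) and Fkbp2 was 1.5-fold lower (6.38%). Hspa13 had the lowest plain RPKM ratio of the members there, 0.540 (0.442 to 0.659), but did not reach 1.5-fold on RPKM + 1. Fkbp2 had 16.5 RPKM in the library labelled Smad4 KO and 27.4 RPKM in WT at 39.5 °C, and 25.4 and 33.5 RPKM at 37 °C (log2 −0.54 ± 0.14, limma adjusted p = 0.059). Atf6 was lower with the KO label at both temperatures, with ratios of 0.751 (0.700 to 0.805) at 39.5 °C and 0.680 (0.631 to 0.732) at 37 °C (limma adjusted p = 0.076). Hspa5 had ratios of 0.772 (0.752 to 0.793) and 0.863 (0.844 to 0.882), and Stt3a of 0.733 (0.703 to 0.764) and 0.838 (0.804 to 0.873). The median log2 ratio of the members was −0.14 at 39.5 °C and 0.11 at 37 °C, and with quantile normalization the value at 37 °C turned to −0.0060. With scaling to total recovered reads the medians were −0.22 at 39.5 °C and 0.03 at 37 °C.

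**Figure D3:**
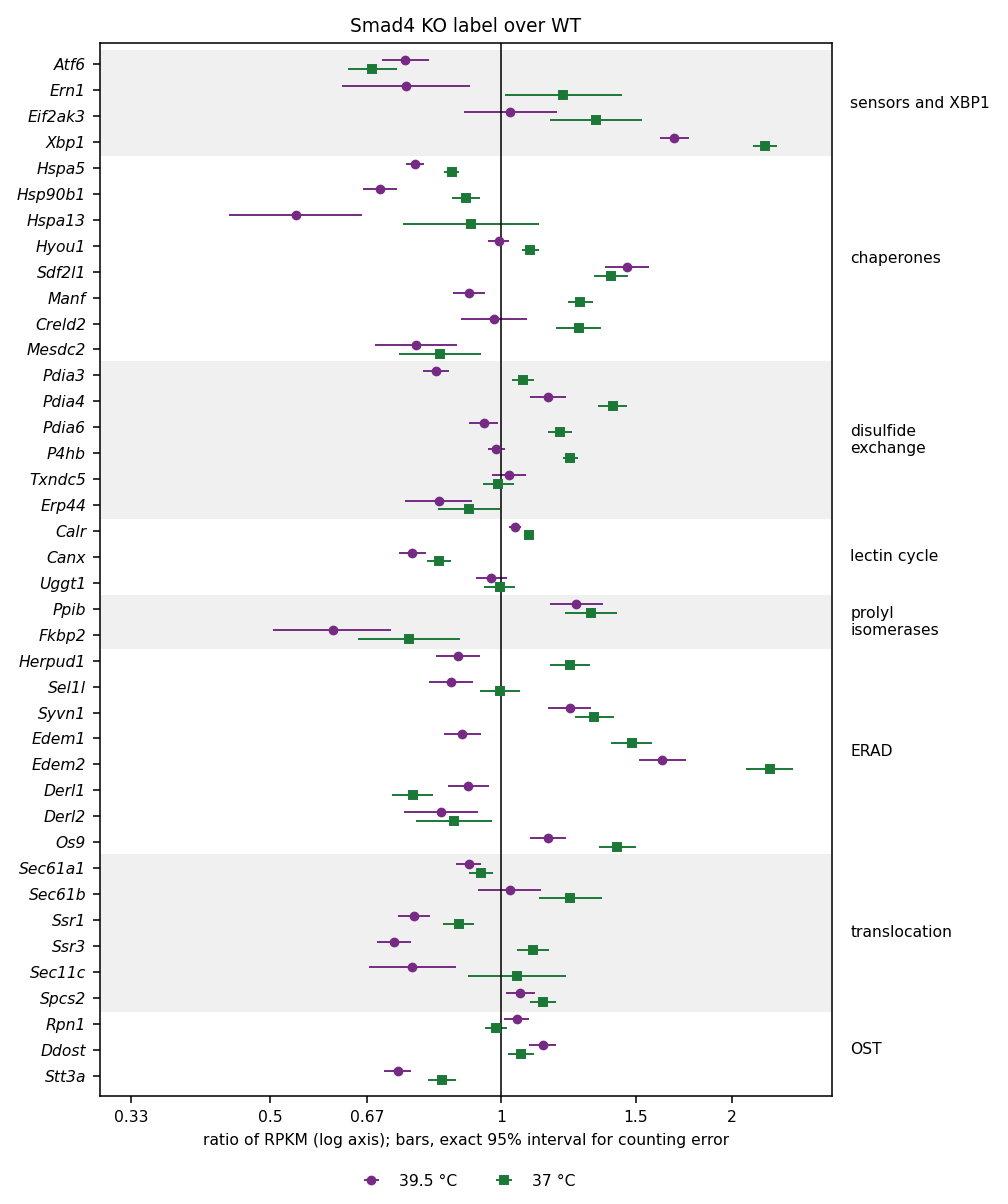
Ratio of RPKM in the library labelled Smad4 KO over WT for the 40 members (log axis) at 39.5 °C (circles) and 37 °C (squares); bars are exact 95% intervals for counting error. Xbp1 and Edem2 lie farthest to the right, at 2.21 and 2.24 at 37 °C, and most other members lie between 0.680 and 1.48.

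The 7 members with an ERSE in the promoter window were below 0 at 39.5 °C in both genotypes, as were 17 of the 26 members whose promoter held no match. Their median log2 ratio was −0.72 under the Smad4 KO label and −0.50 in WT, against −0.30 and −0.15 for the 26. Among those without a match were Xbp1, Sdf2l1, Pdia4 and P4hb, which were also lower at 39.5 °C. Beyond the members, 6 tested genes held the element: the ERAD gene Derl3, the BiP cofactor gene Dnajc3, Adcy3, Alg12, Hnrnpa3 and Pan2. Their medians were −0.23 under the KO label and −0.26 in WT. Of the 6, 4 were below 0 under the KO label and 5 in WT. Between the KO label and WT the 7 had medians of −0.07 at 39.5 °C and 0.12 at 37 °C. These are descriptions over few genes.

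**Figure D4:**
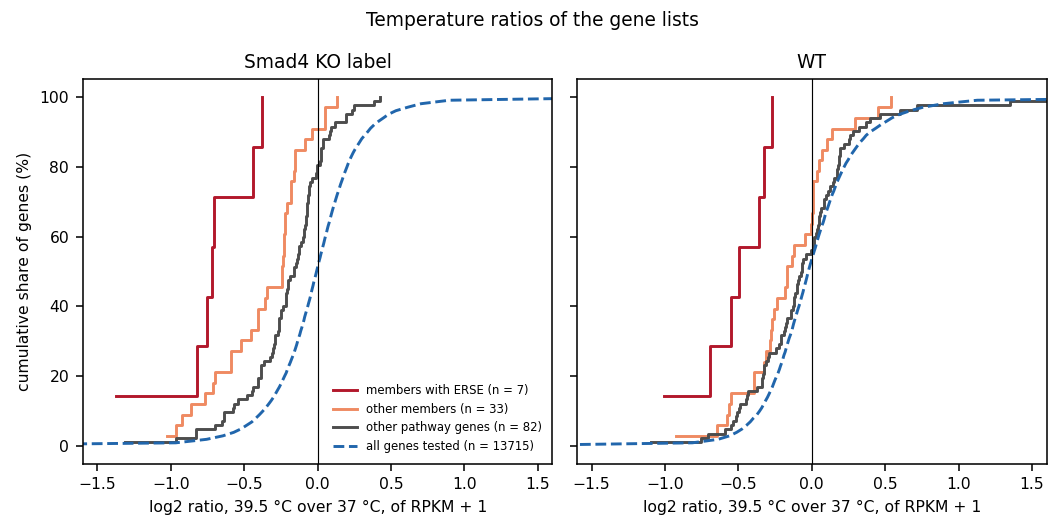
Cumulative share of genes (%) by log2 ratio of RPKM + 1 at 39.5 over 37 °C, for the libraries labelled Smad4 KO (left) and WT (right). Lines stand for the 7 members with an ERSE, the 33 other members (7 of which had no promoter to search), 82 other pathway genes and all genes tested; the ERSE line lies to the left of 0 in both panels.

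Other genes of the secretory pathway and the unfolded protein response lay below 0 more often than all genes under the Smad4 KO label. In WT they lay near the share of all genes. Of 88 further genes listed, 82 passed the filter, and their median log2 ratios for temperature were −0.16 under the KO label and −0.07 in WT. The 82 include 12 genes of a list controlled by ATF4, described further below. Below 0 were 66 of the 82 (80.5%, against 51.3% of all genes) under the KO label and 46 (56.1%, against 53.5%) in WT, where the lists of further ERAD genes and of other unfolded protein response regulators had medians of 0.05 and 0.03. In the limma fit 0 of the 82 rose and 0 fell for temperature. At unadjusted p under 0.05 there were 14 lower and 2 higher, against 6.79% and 7.17% of all genes. The ATF4 list held 7 of the 14 lower genes and the 2 higher ones. With the KO label 2 rose (Ddit4 and Trib3, both on the ATF4 list) and 1 fell (Mcfd2), against 8.57% and 4.70% of all genes. The lowest shared log2 change was that of Pdia5, a disulfide isomerase gene, with 3.15 RPKM at 39.5 °C and 6.37 RPKM at 37 °C under the KO label, and 2.41 and 6.28 RPKM in WT (log2 −0.96 ± 0.14, limma adjusted p = 0.0999). It was followed by Trib3, a pseudokinase gene and CHOP target (−0.93), and by Ero1l, the oxidase gene that recharges the disulfide isomerases (−0.65). The J-domain gene Dnajb9, a target of XBP1, had 1.90 RPKM at 39.5 °C and 3.31 RPKM at 37 °C under the KO label, and 3.17 and 3.55 RPKM in WT.

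The genes that ATF4 controls, listed here for the PERK branch, were not uniform. PERK activity itself was not measured. The 12 measured genes of this list had medians of −0.31 under the Smad4 KO label and −0.44 in WT. Atf4 had 93.0 RPKM at 39.5 °C and 130.02 RPKM at 37 °C under the KO label, and 104 and 135 RPKM in WT (log2 −0.43 ± 0.11, limma adjusted p = 0.219). Ddit3, the gene of the pro-apoptotic factor CHOP, had 5.77 and 7.28 RPKM under the KO label, and 3.48 and 5.06 RPKM in WT, at 39.5 and 37 °C. Higher at 39.5 °C in both genotypes were Sesn2 and Atf3, which are also targets of p53. Sesn2 had 16.1 RPKM at 39.5 °C and 12.1 RPKM at 37 °C under the KO label, and 25.6 and 7.19 RPKM in WT, and Atf3 had 2.07 and 1.29 RPKM, and 2.79 and 0.484 RPKM. The translocon gene Sec62 came next, with a shared log2 change of 0.25, and none of these 3 passed the test (limma adjusted p of 0.230 to 0.555).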

How the data were processed

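RNA-seq of 4 libraries was analysed, 1 per combination of genotype label and temperature, with groups taken from the sample titles. The authors deposited 1 RPKM value per gene and library, and the RPKM scaling was done by the authors. Trim Galore 0.4.4, Bowtie2, featureCounts, Subread, edgeR and build mm10 are named in the submitters' processing notes; how they were run, and on which annotation, is not stated there.

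The 40 members and all gene lists were chosen with earlier results of these data known. RPKM times exon length times library size falls on whole reads: of 13143 rows matched to a GENCODE vM21 gene name, 12048 (91.7%) were whole in all 4 libraries within 0.004 reads, and with a length fitted per row all but 1 of 19555 rows were. For the members, 34 were whole at the GENCODE length and 6 at a fitted one. The library sizes behind the RPKM differed from the total of recovered reads by factors of 0.955 to 1.06. No per-sample column was left unused.

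Values were analysed as log2(RPKM + 1), which understates the change of low genes, for 13715 genes with a mean of at least 1 RPKM. Pairs of libraries were compared by ratio with size rules of 2-fold and 1.5-fold and no p-value. Each ratio carries a Clopper-Pearson 95% interval from the reads of the pair. Shared changes were tested in R 4.3.3 with limma 3.58.1 (additive model, empirical Bayes with a trend, median prior degrees of freedom of 4.47). On simulated libraries of this layout with temperature changes only, its temperature test made more false calls than the adjusted p allows. Calls for the genotype label were not checked by simulation. Nothing says that the libraries came from separate animals or cultures. The p-values measure a change against the interaction and the trend over all genes, not against a spread between animals. Alternatives were pseudocount, filter, scaling, trend and limma-voom on the recovered reads.

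Values in every library are given for Atf6, Ern1, Eif2ak3 and Xbp1, for members 2-fold different in any pair and for the 12 with the largest shared temperature change; the rest are given by ranges, and Edem1, Hspa13, Sec11c, Mesdc2, Ssr3, Herpud1 and Fkbp2 were added after their values were seen. Gene coordinates are from GENCODE vM21 (GRCm38). Mesdc2 is listed there as Mesd. A planned T helper marker was left out of its list and is not reported here.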

Additional observations from a re-analysis of the deposited data

Results flagged for a closer look

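Some members differed in opposite directions under the same contrast, with the counting interval of both ratios on either side of 1. The difference between the ratios was not tested, since each rests on 1 library per group. For 39.5 over 37 °C these were Edem1 (RPKM ratio of 0.894 under the Smad4 KO label and 1.49 in WT), Hspa13 (0.792 and 1.34) and Os9 (0.895 and 1.10). For the Smad4 KO label over WT they were Edem1 (0.891 at 39.5 °C and 1.48 at 37 °C), Ern1 (0.753 and 1.21), Manf (0.909 and 1.27), Herpud1 (0.880 and 1.23), Pdia6 (0.949 and 1.19), Pdia3 (0.823 and 1.07) and Ssr3 (0.725 and 1.10). In each of these 7 genes the ratio was below 1 at 39.5 °C and above 1 at 37 °C. The contrasts share libraries, so Edem1 is the same set of 4 values seen from both sides.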

How the results depend on the processing

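The members' median temperature log2 ratios stayed below 0 in both genotypes under the 6 alternatives for pseudocount, filter and scaling, from −0.39 to −0.31 under the Smad4 KO label and from −0.27 to −0.19 in WT. The median of the genotype ratio at 37 °C turned to −0.0060 with quantile normalization. Counts of members past 2-fold, 2 for temperature under the KO label, 1 for temperature in WT, 0 and 2 for genotype at 39.5 and 37 °C, were small and moved by 1 gene: to 1 under the KO label with quantile normalization or scaling to total reads, to 0 in WT with these or upper quartile scaling, and to 1 at 37 °C with quantile normalization. At 1.5-fold they were 14, 4, 3 and 2. The limma count for temperature, 0 members, was 9 with a minimum mean of 5 RPKM and 6 with limma-voom. The planned edgeR fit is not reported, since count models were kept to deposited counts. The limma count for genotype, 3 members that rose, was 5 with a minimum mean of 5 RPKM (3 of 36 rose and 2 fell, against 15.3% and 9.68% of all genes) and 0 with no filter. Shared genotype changes that reversed with quantile normalization were Calr (−0.16), P4hb (−0.12), Hyou1 (−0.066), Pdia6 (−0.039) and Manf (−0.019), and Hyou1 also with scaling to total reads (−0.024); none had passed the test. The cause was not tested. Scaling alternatives moved the median of all genes by less than 0.1 on the log2 scale. No paired analysis was possible because each group has 1 library and the labels carry no replicate numbers. Leaving out a library leaves no residual degree of freedom. Depth limits Ern1, Hspa13 and Fkbp2 most, with 153 to 404 reads a library, followed by Sec11c (367 to 554) and Eif2ak3 (376 to 484).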
